A study of Mus musculus with 8 samples.

Results

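The muscle atrophy ligases and FoxO factors were 10 genes chosen by name: the ubiquitin ligases Fbxo32, Trim63, Fbxo30, Stub1, Trim54 and Trim55, the transcription factors Foxo1, Foxo3 and Foxo4, and the stress gene Gadd45a. Every array probe other than a control whose RefSeq accession belongs to one of these genes was taken, which gave 14 of the 55681 probes and 10 of the 20660 genes that could be named on the array. Trim63, Fbxo30, Foxo1 and Foxo4 had 2 probes each and the other 6 genes had 1.

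Skeletal muscle loses mass when its fibres break down contractile proteins faster than they make them, and much of this breakdown runs through the ubiquitin-proteasome system. FoxO transcription factors, which insulin and IGF-1 signaling through Akt keeps out of the nucleus, switch on Fbxo32 (atrogin-1) and Trim63 (MuRF1) during fasting, denervation and glucocorticoid exposure, and both ligases are standard markers of atrophy. Trim54 and Trim55 are the MuRF relatives that bind titin and microtubules in the sarcomere, Fbxo30 (MUSA1) is an F-box ligase held down by BMP signaling, Stub1 (CHIP) ubiquitinates clients of heat shock chaperones, and Gadd45a is a nuclear stress protein induced by Atf4 in denervated muscle.

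The study compared mice heterozygous for Eif6, a translation initiation factor that controls the joining of the ribosomal subunits, with wild-type (WT) littermates. Both groups were male, on the C57BL6 background and 8 to 16 weeks old, and neither was treated. Each of 8 two-colour arrays carried the RNA of 1 Eif6+/- mouse in Cy5 and of 1 age-matched WT mouse in Cy3, with 4 pairs for gastrocnemius and 4 pairs for tibialis anterior (TA). The dyes are those given with the samples, where the labelling text names both, while the article's methods mention Cy3 only. Values are log2 ratios of Eif6+/- over WT, or normalized log2 intensities of a single channel. No array carried the dyes the other way round, so genotype and dye cannot be told apart inside a muscle, and the slide row likewise cannot be told apart from the muscle. With 4 arrays a muscle, precision is limited by their number. SE is the standard error from the limma fit.

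Eif6 itself was lower in the Eif6+/- channel of every array. Its probe A_52_P85864 had log2 ratios of −0.97, −1.14, −0.88 and −1.06 in gastrocnemius pairs 1 to 4 and −1.22, −1.03, −0.96 and −0.80 in TA pairs 1 to 4, and its probe A_55_P1989013, also below 0 on all 8 arrays, had means of −1.13 and −1.12. Whether these probes lie inside the inactivated stretch of Eif6 could not be read from the files, so they check the labels only as far as the transcript is lowered. The fast-fibre and general muscle markers Acta1, Ckm, Myh4, Myh1, Atp2a1, Pvalb, Mb and Tnnc2 were all above background on at least 1 array. Without gastrocnemius pair 3 or pair 4, or without TA pair 1, the Eif6 probes did not pass the threshold described next, although their log2 ratios stayed at −0.93 or lower in every setting tried.

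Neither of the classical atrophy markers, Fbxo32 and Trim63, was called higher in Eif6+/- muscle. Of the 13 member probes bright enough to test, 1 passed the threshold in gastrocnemius (7.69%, beside 14.1% of all probes tested there) and 4 passed in TA (30.8%, beside 15.2% of all probes), and all 5 calls were decreases. A probe passed when its limma p, adjusted over all probes of the muscle by the Benjamini-Hochberg method, was under 0.1. Stub1 was lower in both muscles. A probe of Trim63, the probe of Trim54 and a probe of Foxo1 were lower in TA. The median log2 ratio of the 13 probes was −0.046 in gastrocnemius and −0.13 in TA, beside 0.017 and 0.00095 over all probes tested. Foxo3, whose single probe was not well above background, was not tested. In gastrocnemius no probe of any gene on the array passed without pair 3 or without pair 4, and in TA none passed without pair 1, so each call in a muscle needs those pairs.

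**Figure D1:**
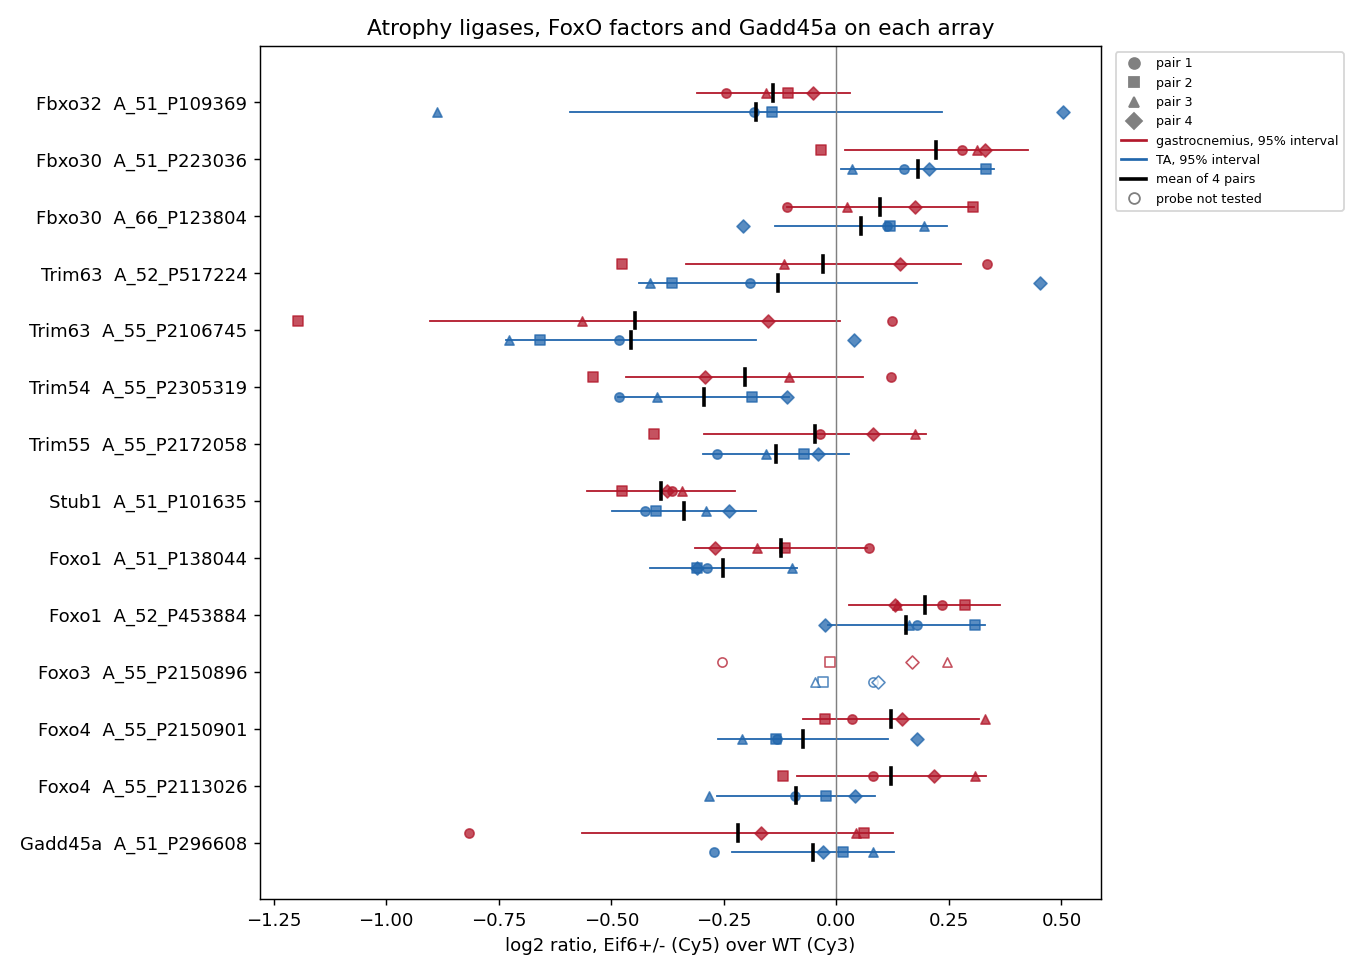
Log2 ratio of Eif6+/- over WT (horizontal axis) for all 14 probes (rows), with 1 point per array, gastrocnemius in red above TA in blue, the mean of 4 pairs as a black bar and its 95% interval from the limma fit as a line. The 8 points of Stub1 all lie between −0.48 and −0.24, while the points of Fbxo32 and of both Trim63 probes spread to both sides of 0 in TA.

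Among the F-box ligases, Fbxo32 (probe A_51_P109369) had log2 ratios of −0.25, −0.11, −0.16 and −0.051 in gastrocnemius pairs 1 to 4 and −0.18, −0.14, −0.89 and 0.50 in TA pairs 1 to 4. All 4 gastrocnemius pairs were slightly below 0, whereas in TA pair 3 was far below 0 and pair 4 well above it. The mean was −0.14 ± 0.082 (SD over n = 4 pairs, SE 0.072, adjusted p = 0.265) in gastrocnemius and −0.18 ± 0.57 (SD over n = 4 pairs, SE 0.18, adjusted p = 0.555) in TA, and neither passed. The intervals of the mean, −0.31 to 0.030 and −0.59 to 0.24, both include 0, and that of TA is the wider. The normalized log2 intensity showed how much this gene varied from mouse to mouse within a genotype. In gastrocnemius it was 10.40, 10.04, 9.49 and 10.19 in the WT mice and 10.15, 9.94, 9.34 and 10.14 in the Eif6+/- mice of pairs 1 to 4, and in TA 10.55, 10.34, 10.23 and 10.04 in WT and 10.37, 10.20, 9.34 and 10.54 in Eif6+/-. The Eif6+/- mouse of pair 3 was the lowest in both muscles, in TA without a low WT partner, and without TA pair 3 the TA mean became 0.059. The ranges of the genotypes overlapped in both muscles.

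Fbxo30 has 2 probes. Probe A_51_P223036 had log2 ratios of 0.28, −0.035, 0.31 and 0.33 in gastrocnemius and 0.15, 0.33, 0.035 and 0.21 in TA, above 0 on all arrays but 1. The mean was 0.22 ± 0.17 (SD over n = 4 pairs, SE 0.087, adjusted p = 0.162) in gastrocnemius and 0.18 ± 0.12 (SD over n = 4 pairs, SE 0.074, adjusted p = 0.162) in TA. Neither passed, but in gastrocnemius the probe passed without pair 2 (0.31, adjusted p = 0.0964), the only array on which it lay below 0, and the adjusted p ran from 0.0875 to 0.412 over the 16 settings tried. It passed in 2 of these 16 settings in gastrocnemius and in 2 of 16 in TA, where the adjusted p ran from 0.0911 to 0.406. Its other probe A_66_P123804 had means of 0.098 ± 0.18 and 0.055 ± 0.18 (SD, n = 4 pairs), and was above 0 on 3 arrays of each muscle, though not on the same ones.

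The RING ligases of the MuRF family varied widely between arrays. Trim63 has 2 probes. Probe A_52_P517224 had log2 ratios of 0.34, −0.48, −0.12 and 0.14 in gastrocnemius pairs 1 to 4 and −0.19, −0.36, −0.41 and 0.45 in TA pairs 1 to 4, while probe A_55_P2106745 had 0.12, −1.20, −0.56 and −0.15 and −0.48, −0.66, −0.73 and 0.040. The probes moved together over the arrays (Pearson r = 0.943 over 8 arrays, a description), but the second was lower than the first on every array, by 0.21 to 0.72. Its mean was −0.45 ± 0.57 (SD over n = 4 pairs, SE 0.19, adjusted p = 0.197) in gastrocnemius and −0.46 ± 0.35 (SD over n = 4 pairs, SE 0.12, adjusted p = 0.0630) in TA, where it passed, whereas the first had −0.029 ± 0.35 (SD over n = 4 pairs, SE 0.13, adjusted p = 0.913) and −0.13 ± 0.40 (SD over n = 4 pairs, SE 0.14, adjusted p = 0.566). Whether Trim63 was lower in TA therefore depends on the probe. On both probes the ratio was highest in gastrocnemius pair 1 and TA pair 4 and lowest in gastrocnemius pair 2 and TA pair 3. Without TA pair 4 the first probe also passed, at −0.32 (adjusted p = 0.0650, with 0.0650 to 0.911 over the 16 settings tried). Its gastrocnemius mean changed sign without pair 2 (0.12) or pair 3 (0.00052). Without gastrocnemius pair 1 the second probe passed at −0.64 (adjusted p = 0.0854, with 0.0854 to 0.436 over the settings), and without pair 2 its mean was −0.20. The call of the second probe in TA was kept in 8 of 16 settings (adjusted p from 0.0307 to 0.279) and was lost without pair 1 (−0.45), pair 2 (−0.39) or pair 3 (−0.37).

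Trim54 (probe A_55_P2305319) had log2 ratios of 0.12, −0.54, −0.11 and −0.29 in gastrocnemius and −0.48, −0.19, −0.40 and −0.11 in TA, below 0 in all 4 TA pairs and in 3 of 4 gastrocnemius pairs. The mean was −0.20 ± 0.28 (SD over n = 4 pairs, SE 0.11, adjusted p = 0.293) in gastrocnemius and −0.29 ± 0.18 (SD over n = 4 pairs, SE 0.083, adjusted p = 0.0706) in TA, where it passed and corresponds to a fold of 0.815. In TA the normalized log2 intensity was 13.37, 13.07, 13.34 and 13.04 in the WT mice and 12.89, 12.88, 12.94 and 12.93 in the Eif6+/- mice, so that all 4 Eif6+/- mice lay below all 4 WT mice, and the SD was smaller in Eif6+/- (0.031, SD, n = 4) than in WT (0.18), a difference in spread that was not tested. The call was kept in 8 of 16 settings (adjusted p from 0.0588 to 0.273) and was lost without TA pair 1 (−0.23), pair 2 (−0.33) or pair 3 (−0.26). Trim55 (probe A_55_P2172058) had −0.037, −0.40, 0.17 and 0.081 in gastrocnemius and −0.27, −0.072, −0.16 and −0.041 in TA, also below 0 in all 4 TA pairs, but its mean of −0.13 ± 0.10 (SD over n = 4 pairs, SE 0.071, adjusted p = 0.259) in TA did not pass. The gastrocnemius mean of Trim54 was −0.31 without pair 1 and −0.092 without pair 2. In gastrocnemius the mean of Trim55 was −0.046 ± 0.25 (SD over n = 4 pairs, SE 0.11, adjusted p = 0.813), and it became 0.073 without pair 2. Pair 2 of gastrocnemius gave the lowest ratio of Trim63, Trim54 and Trim55 alike.

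RefSeq promoter sequences (GRCm38.p6) were at hand for Trim63, Fbxo30, Stub1, Foxo1, Foxo3, Trim54 and Gadd45a, 7 of the 10 genes. The 250 bases before the start site are shown for Trim63 and Trim54, relatives whose ratios moved together over the arrays (r = 0.709 between their brightest probes over 8 arrays, a description), and for Stub1, which was called in both muscles. Motifs were sought on both strands, and a match describes letters only. TGTTTAC (reverse GTAAACA), the core that FoxO proteins bind, occurs in 3.17% of 32851 promoters of this length. TGTTCT (reverse AGAACA), one arm of the glucocorticoid receptor site, occurs in 16.1%, and the E-box CAGCTG of myogenic factors in 13%. Capitals mark the matches.
Trim63, chr4:134314870-134315119, plus strand: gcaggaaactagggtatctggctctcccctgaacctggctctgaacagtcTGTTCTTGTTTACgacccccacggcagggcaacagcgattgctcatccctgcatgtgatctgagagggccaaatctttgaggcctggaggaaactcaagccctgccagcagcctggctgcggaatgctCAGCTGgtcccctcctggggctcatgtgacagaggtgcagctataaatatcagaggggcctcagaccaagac
Trim54, chr5:31116362-31116611, plus strand: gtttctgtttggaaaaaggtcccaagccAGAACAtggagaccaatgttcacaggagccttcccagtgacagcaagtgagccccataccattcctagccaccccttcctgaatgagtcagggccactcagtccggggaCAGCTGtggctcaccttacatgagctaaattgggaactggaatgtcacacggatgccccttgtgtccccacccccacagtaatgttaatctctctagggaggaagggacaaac
Stub1, chr17:25832920-25833169, minus strand: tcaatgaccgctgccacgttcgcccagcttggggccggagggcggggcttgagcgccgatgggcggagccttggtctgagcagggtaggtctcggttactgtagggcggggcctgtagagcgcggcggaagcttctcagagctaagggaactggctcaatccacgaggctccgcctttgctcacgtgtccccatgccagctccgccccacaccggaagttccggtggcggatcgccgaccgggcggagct
In Trim63 the first 6 capitals are the receptor arm, 200 to 195 bases before the start, and the FoxO core adjoins it without overlap at 194 to 188. Its E-box lies at 72 to 67. Trim54 holds the receptor arm on the reverse strand at 222 to 217 and an E-box at 113 to 108, and the FoxO letters are not in this window. None of the motifs is in the window of Stub1, nor in those of Fbxo30, Foxo1, Foxo3 and Gadd45a.

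Stub1 (probe A_51_P101635) gave the steadiest change of the group. Its log2 ratios were −0.37, −0.48, −0.34 and −0.38 in gastrocnemius pairs 1 to 4 and −0.43, −0.40, −0.29 and −0.24 in TA pairs 1 to 4, below 0 on all 8 arrays and within a narrow range. The normalized log2 intensity in gastrocnemius was 11.89, 12.04, 11.94 and 11.69 in WT and 11.52, 11.56, 11.60 and 11.32 in Eif6+/-, and in TA 11.99, 11.82, 11.77 and 11.71 in WT and 11.57, 11.42, 11.48 and 11.47 in Eif6+/-. In each muscle every Eif6+/- mouse lay below every WT mouse. The mean log2 ratio was −0.39 ± 0.059 (SD over n = 4 pairs, SE 0.070, adjusted p = 0.0334) in gastrocnemius, a fold of 0.763, and −0.34 ± 0.089 (SD over n = 4 pairs, SE 0.070, adjusted p = 0.0369) in TA, a fold of 0.791. The call was lost in gastrocnemius without pair 3 (adjusted p = 0.127) or pair 4 (0.153), and in TA without pair 1 (0.182) or pair 2 (0.115) and with Agilent's processed signals (0.116). Over the 16 settings tried the adjusted p ran from 0.00609 to 0.153 in gastrocnemius and from 0.0198 to 0.182 in TA, while the ratio itself stayed between −0.43 and −0.31 over all settings tried in both muscles. In whole muscle, fewer cells of a type and less RNA per cell cannot be told apart, here and in every value that follows. The level of Stub1 did not differ between the muscles beyond its spread in either genotype (gastrocnemius minus TA 0.070 in WT and 0.018 in Eif6+/-, adjusted p = 0.671 and 0.908).

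**Figure D2:**
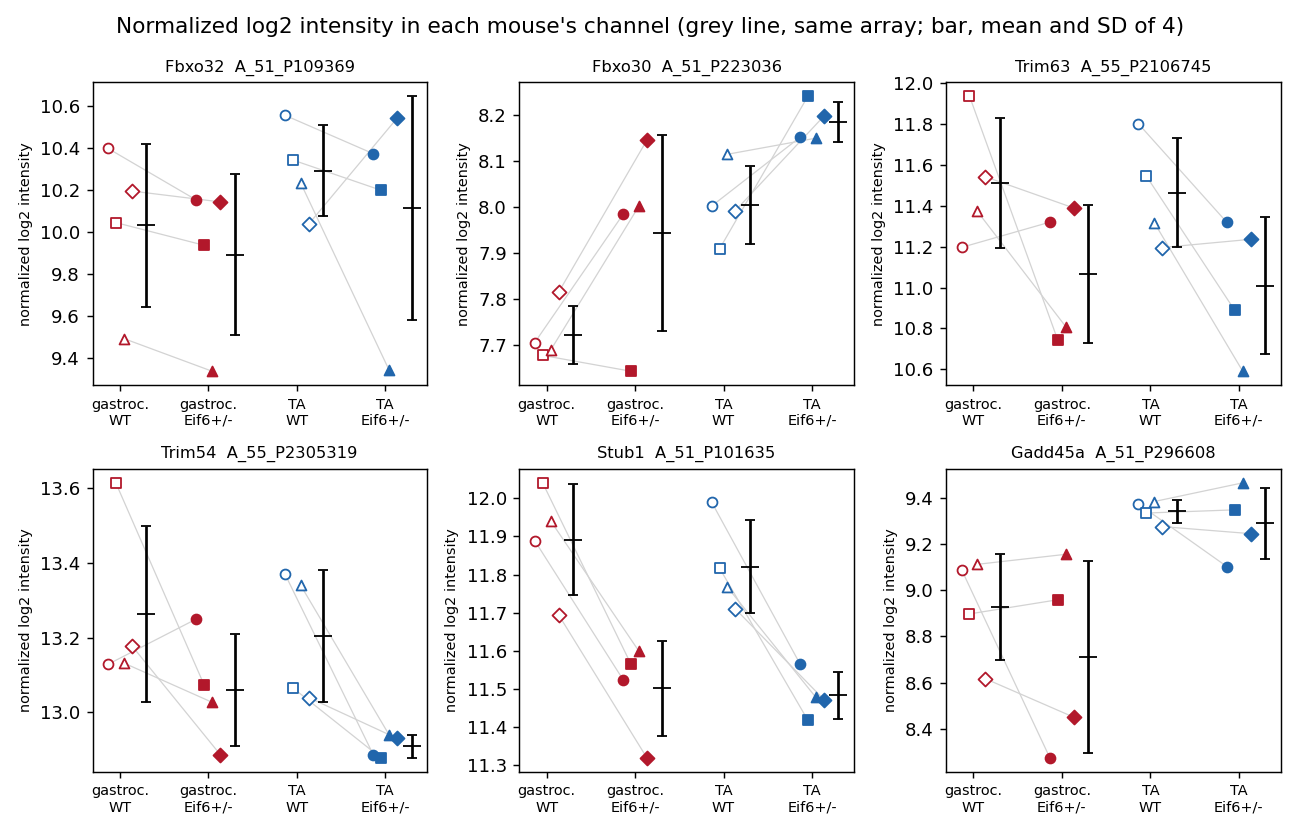
Normalized log2 intensity (vertical axis, its own scale in each panel) in every mouse's channel for 6 probes, with WT open and Eif6+/- filled, gastrocnemius in red and TA in blue, grey lines joining the mice of one array, and the mean with its SD (n = 4) as a bar. Every line of Stub1 falls from WT to Eif6+/-, and the Eif6+/- mice of Trim54 in TA lie below all WT mice. The WT values of Gadd45a all lie lower in gastrocnemius than in TA, while the Eif6+/- values overlap.

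Of the FoxO factors, Foxo1 gave opposite answers on its 2 probes. Probe A_51_P138044 had log2 ratios of 0.072, −0.12, −0.18 and −0.27 in gastrocnemius and −0.29, −0.31, −0.099 and −0.31 in TA. Probe A_52_P453884 had 0.23, 0.29, 0.14 and 0.13 and 0.18, 0.31, 0.16 and −0.026. The first lay below 0 on 7 arrays and the second above 0 on 7 arrays, and the second exceeded the first on every array, by 0.16 to 0.62. The first passed in TA, at −0.25 ± 0.10 (SD over n = 4 pairs, SE 0.071, adjusted p = 0.0721), and not in gastrocnemius, at −0.12 ± 0.14 (SD over n = 4 pairs, SE 0.082, adjusted p = 0.383). The second did not pass in gastrocnemius, at 0.20 ± 0.076 (SD over n = 4 pairs, SE 0.072, adjusted p = 0.141), or in TA, at 0.16 ± 0.14 (SD over n = 4 pairs, SE 0.077, adjusted p = 0.225), though in gastrocnemius it passed in 2 of 16 settings (adjusted p from 0.0829 to 0.284). No direction can be given for Foxo1 as a gene. The call of the first probe in TA was kept in 9 of 16 settings (adjusted p from 0.0552 to 0.253) and was lost without TA pair 1 (−0.24), pair 2 (−0.23) or pair 4 (−0.23).

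**Figure D3:**
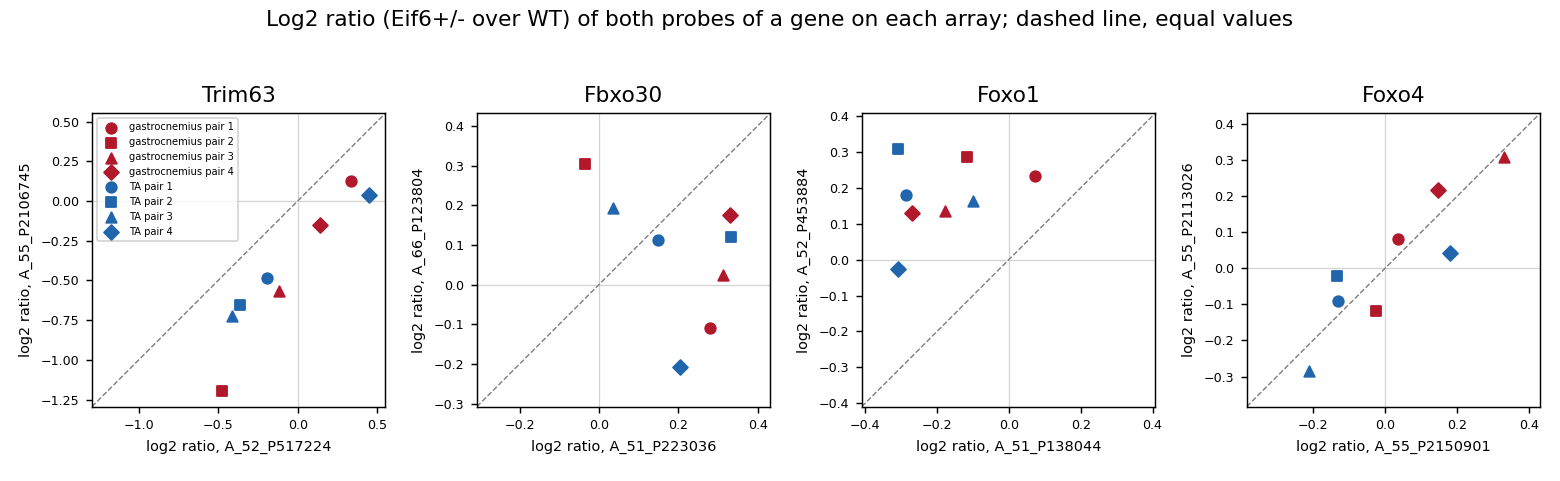
Log2 ratio of one probe (horizontal axis) against that of the other probe of the same gene (vertical axis) on the 8 arrays, for the 4 genes with a pair of probes, with a dashed line of equal values. The Trim63 points run parallel to the line but below it, the Foxo1 points all lie above it, the Foxo4 points lie along it, and the Fbxo30 points scatter.

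Foxo4, the X-linked member of the family, had a pair of probes that matched closely, with differences of at most 0.14 on any array. Probe A_55_P2150901 had log2 ratios of 0.035, −0.024, 0.33 and 0.15 in gastrocnemius and −0.13, −0.13, −0.21 and 0.18 in TA, and probe A_55_P2113026 had 0.081, −0.12, 0.31 and 0.22 and −0.091, −0.023, −0.28 and 0.042. Both leaned above 0 in gastrocnemius (means 0.12 ± 0.16 and 0.12 ± 0.19, SD, n = 4 pairs, adjusted p = 0.398 and 0.428) and below 0 in TA (means −0.074 ± 0.17 and −0.089 ± 0.14, adjusted p = 0.594 and 0.485), and no call was made. Over the settings tried the means ran from 0.052 to 0.27 and from 0.060 to 0.28 in gastrocnemius. In TA they ran from −0.22 to −0.028 and from −0.29 to −0.024. The single probe of Foxo3 (A_55_P2150896) was well above background on 1 of 4 arrays in the Eif6+/- channel of gastrocnemius and on none elsewhere, so it was not tested. Its log2 ratios, which lie in the range of the background, were −0.25, −0.015, 0.25 and 0.17 in gastrocnemius and 0.082, −0.030, −0.046 and 0.092 in TA, on both sides of 0 in each muscle.

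Gadd45a (probe A_51_P296608) had log2 ratios of −0.82, 0.061, 0.043 and −0.17 in gastrocnemius and −0.27, 0.014, 0.081 and −0.031 in TA. The mean was −0.22 ± 0.41 (SD over n = 4 pairs, SE 0.15, adjusted p = 0.385) in gastrocnemius and −0.052 ± 0.15 (SD over n = 4 pairs, SE 0.079, adjusted p = 0.706) in TA, with no call, and gastrocnemius pair 1 alone lay far below 0. Without that pair the gastrocnemius mean was −0.021, and without TA pair 1 the TA mean became 0.021. This gene did differ between the muscles. Its normalized log2 intensity was 9.09, 8.90, 9.11 and 8.62 in WT gastrocnemius and 9.37, 9.33, 9.38 and 9.28 in WT TA, so that all WT gastrocnemius samples lay below all WT TA samples. In Eif6+/- it was 8.27, 8.96, 9.16 and 8.45 in gastrocnemius and 9.10, 9.35, 9.47 and 9.25 in TA, where the ranges overlapped. Gastrocnemius minus TA was −0.41 in WT (standard error 0.11, adjusted p = 0.0392) and −0.58 in Eif6+/- (standard error 0.18, adjusted p = 0.0706). The call in WT was kept in all 15 settings tried and that in Eif6+/- in 7 of 15 (adjusted p from 0.0256 to 0.159). The latter was lost without gastrocnemius pair 1 (−0.44) or pair 4 (−0.49) and without TA pair 1 (−0.64), pair 2 (−0.56), pair 3 (−0.52) or pair 4 (−0.60).

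Slow fibre genes were highest in the 3 channels with the lowest Gadd45a, and the other channels followed this order in part. The 7 slow fibre genes (Myh7, Tnnc1, Tnni1, Tnnt1, Myl3, Myl2 and Atp2a2), all above background on at least 1 array and led by Myl3, had a summed normalized intensity in gastrocnemius pairs 1 to 4 of 14487, 64153, 40654 and 156534 in WT and 132680, 31101, 48531 and 132622 in Eif6+/-. In TA pairs 1 to 4 it was 12158, 35491, 10359 and 37982 in WT and 12063, 23410, 9990 and 13883 in Eif6+/-. The 3 channels with the highest sums, WT pair 4, Eif6+/- pair 1 and Eif6+/- pair 4 of gastrocnemius, were the 3 with the lowest Gadd45a, and gastrocnemius pair 1, in which the Eif6+/- mouse had the high and the WT mouse the low sum, gave the low Gadd45a ratio. Channels were also ranked from the highest sum and from the lowest Gadd45a. WT gastrocnemius pair 2 had rank 4 on both, WT TA pair 3 rank 15 on both and Eif6+/- TA pair 3 rank 16 on both. Other channels differed. The WT mouse of gastrocnemius pair 1, with a sum within the range of TA, had a Gadd45a value of 9.09, below every WT TA sample. The Eif6+/- mouse of TA pair 1 had the lowest Gadd45a in TA with one of the lowest sums. In gastrocnemius pair 4 the WT mouse had both the higher sum and the higher Gadd45a. In the comparison of gastrocnemius with TA, 6 of 7 slow fibre genes were called higher in gastrocnemius in WT (all 7 lay above 0) and 7 of 7 in Eif6+/-, beside 8.63% and 6.98% of all named genes tested. Other markers differed between the muscles as well. In WT, 5 of 6 fat cell markers (median 1.98), 4 of 7 of connective tissue (0.82) and 1 each of myelinated nerve, endothelium and satellite cells were called higher in gastrocnemius and 2 of 8 of muscle fibre lower. In Eif6+/-, 5 of 6 nerve markers (median 0.53), 3 of 6 of fat (1.25, with 1 lower), 2 of 4 of red cells and 1 each of leukocytes and connective tissue were called higher, and 1 each of endothelium and muscle fibre lower. The part of fibre composition or of other cells in the Gadd45a values was not tested.

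**Figure D4:**
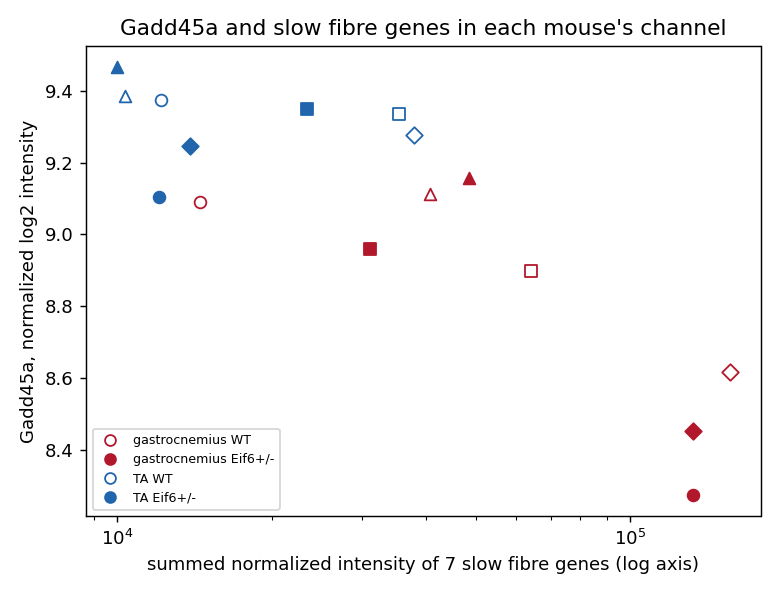
Normalized log2 intensity of Gadd45a (vertical axis) against the summed normalized intensity of 7 slow fibre genes (horizontal axis, log scale) in the 16 channels, with WT open and Eif6+/- filled, gastrocnemius in red and TA in blue. The 3 channels with the highest sums are gastrocnemius samples and have the lowest Gadd45a, between 8.27 and 8.62.

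Across the muscles, 2 of the 13 member probes passed in WT (15.4%, beside 20.5% of the probes tested) and 1 in Eif6+/- (7.69%, beside 14.6%). Besides Gadd45a, Fbxo30 (probe A_51_P223036) was lower in gastrocnemius than in TA in WT. Its normalized log2 intensity there was 7.70, 7.68, 7.69 and 7.81 against 8.00, 7.91, 8.11 and 7.99 in TA, with no overlap, a difference of −0.28 (standard error 0.076, adjusted p = 0.0395). In Eif6+/- the difference was −0.24 (adjusted p = 0.154). The WT call of Fbxo30 was kept in 13 of 15 settings (adjusted p from 0.0366 to 0.109). It was lost without TA pair 3 (−0.25) and with the pair number as a replicate block. Its other probe A_66_P123804 had −0.059 in WT (adjusted p = 0.653) and passed in none of the settings, so the call depends on the probe. The probes of Foxo4 were also lower in WT gastrocnemius, at −0.29 and −0.24, but missed the threshold (adjusted p = 0.119 and 0.102, passing in 2 and 3 of 15 settings, with adjusted p from 0.0515 to 0.266 and from 0.0428 to 0.232). Their size depended on the background step, with −0.60 and −0.53 at normexp offset 0 and −0.65 on both with Agilent's processed signals. In Eif6+/- they were −0.094 and −0.029. For Fbxo32 the difference was −0.26 in WT and −0.22 in Eif6+/- (adjusted p = 0.377 and 0.627), and leaving out an array gave −0.38 to −0.079 in WT and −0.48 to −0.036 in Eif6+/-, nearest 0 without gastrocnemius pair 3. For Trim63, Trim54, Trim55 and Foxo1 the group means of the muscles were within 0.15 of each other in both genotypes and were not called.

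The genotype effect itself was not shown to differ between the muscles for any member. The contrast of the log2 ratios, gastrocnemius minus TA over all 8 arrays, gave no call by limma among the 13 probes, none of which had an unadjusted p under 0.05, and 0% of 22757 probes were called, although 1755 had an unadjusted p under 0.05. A dye effect that is equal in both muscles cancels in this contrast. The largest differences were those of Foxo4, 0.21 (95% interval −0.049 to 0.47) and 0.20 (−0.064 to 0.46). With normexp offset 0 they were 0.46 and 0.39, and with Agilent's processed signals 0.56 and 0.41, again not called. For Stub1 it was −0.052 (−0.25 to 0.14), for Trim54 0.091 (−0.23 to 0.42), for the Trim63 probe called in TA 0.0094 (−0.57 to 0.59) and for the Foxo1 probe called in TA 0.13 (−0.099 to 0.36). The calls made in TA alone are therefore not shown to be particular to TA.

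The genes that work with the ligases were described from lists of the pathway, each gene by its brightest probe. Over all named genes, 10.3% rose and 5.52% fell in gastrocnemius and 8.82% rose and 7.4% fell in TA (medians 0.023 and 0.017). Of the 37 calls made in gastrocnemius for the genes named from these and the marker lists, 8, 15, 37 and 37 were lost without pairs 1, 2, 3 and 4, and of the 49 made in TA 49, 26, 16 and 8 were lost. Among other ubiquitin ligases linked to muscle wasting, 4 rose and 2 fell of 24 tested in gastrocnemius (median log2 ratio 0.035), and 2 rose and 1 fell of 24 in TA (median 0.0095). Nedd4 fell in gastrocnemius, at −0.48 (adjusted p = 0.0441), and its relative Nedd4l rose in TA, at 0.54 (adjusted p = 0.0399). Trim32, which ubiquitinates thin filament proteins, rose in gastrocnemius, at 0.41 (adjusted p = 0.0546), as did Ubr2, at 0.47 (adjusted p = 0.0506), and Smurf1 fell in TA, at −0.30 (adjusted p = 0.0400).

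Of the SCF complex and ubiquitin chain partners, 1 rose and 1 fell of 19 tested in gastrocnemius (median log2 ratio −0.0028), and 3 rose and 2 fell of 19 in TA (median 0.025). Ubb, which encodes polyubiquitin, fell in both muscles, at −0.32 (adjusted p = 0.0831) and −0.31 (adjusted p = 0.0946), but another of its probes gave 0.31 in TA (adjusted p = 0.103). Uba2, a subunit of the SUMO activating enzyme, rose in both, at 0.57 (adjusted p = 0.0252) and 0.39 (adjusted p = 0.0292). The conjugating enzyme Ube2g1 rose in TA, at 0.28 (adjusted p = 0.0509), and the deubiquitinase Usp19 fell there, at −0.24 (adjusted p = 0.0901).

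Stub1 acts on clients handed over by Hsp70 and Hsp90. Of its chaperone partners, 3 rose and 2 fell of 15 tested in gastrocnemius (median log2 ratio 0.0014), and 3 rose and 4 fell of 15 in TA (median −0.16). Stip1, which links Hsp70 to Hsp90, fell in both muscles like Stub1, at −0.40 (adjusted p = 0.0386) and −0.47 (adjusted p = 0.0395). Dnajb1, an Hsp40 induced by heat shock, rose in both, at 0.71 (adjusted p = 0.0565) and 0.64 (adjusted p = 0.0747), but the TA value was 0.36 without pair 1. Hspb8, partner of Bag3 in chaperone-assisted autophagy, fell in gastrocnemius, at −0.63 (adjusted p = 0.0320), while in TA the Hsp70 exchange factor Hspbp1 fell, at −0.45 (adjusted p = 0.0458), and Dnaja1 rose, at 0.39 (adjusted p = 0.0667). Hspa8 is among the genes counted as higher, since its brightest probe was called at 0.27 (adjusted p = 0.0905) in gastrocnemius and 0.34 (adjusted p = 0.0412) in TA. Both of its other probes were below 0, one of them called in gastrocnemius at −0.31 (adjusted p = 0.0740) and both called in TA at −0.32 and −0.27 (adjusted p = 0.0591 and 0.0644), so no direction is given for it.

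The MuRF proteins bind titin and its neighbours at the M-band. Of these partners, 1 rose and 1 fell of 15 tested in gastrocnemius (median log2 ratio −0.015), and 2 rose and 2 fell of 15 in TA (median −0.041). Myom2, a protein of the M-band in fast fibres, rose in TA, at 0.53 (adjusted p = 0.0135), as did Rack1, at 0.37 (adjusted p = 0.0341). The autophagy receptor Nbr1, which sits at the titin kinase, fell there, at −0.32 (adjusted p = 0.0400). In gastrocnemius Myot rose, at 0.44 (adjusted p = 0.0763), and Mybpc2, a thick filament protein of fast fibres, fell, at −0.30 (adjusted p = 0.0703).

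Upstream of the FoxO factors, 4 rose and 2 fell of 30 tested in gastrocnemius (median log2 ratio 0.029), and 3 rose and 2 fell of 30 in TA (median 0.020). Pdpk1, the kinase that activates Akt, rose in both muscles on its brightest probe, at 0.39 (adjusted p = 0.0951) and 0.41 (adjusted p = 0.0519), while another probe gave −0.17 and −0.0056. Mstn (myostatin), the secreted inhibitor of muscle growth, rose in TA, at 0.79 ± 0.41 (SD, n = 4 pairs, adjusted p = 0.0247), and all 4 pairs lay above 0. In gastrocnemius it was 0.24 (adjusted p = 0.275). Sgk1, which phosphorylates FoxO proteins at the Akt sites, rose in gastrocnemius, at 0.64 (adjusted p = 0.0428). Ppargc1a rose there as well, at 0.33 (adjusted p = 0.0515), but was −0.20 in TA (adjusted p = 0.165), below 0 in all 4 pairs. The AMPK subunit Prkab2 fell in gastrocnemius, at −0.36 (adjusted p = 0.0904). In TA Stk11 (LKB1) and Mtor fell, at −0.29 (adjusted p = 0.0796) and −0.27 (adjusted p = 0.0714).

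Downstream, the FoxO target genes outside autophagy were counted in the same way. Of this list, 7 rose and 0 fell of 27 tested in gastrocnemius (median log2 ratio 0.13), and 5 rose and 1 fell of 27 in TA (median −0.013). The list was split in direction, with 15 of 27 above 0 in gastrocnemius and 13 in TA. Below 0 in gastrocnemius, though not called by limma, were Angptl4 at −1.12 (adjusted p = 0.161) and Cited2 at −0.64 (adjusted p = 0.124). So were Cdkn1a at −0.53 (adjusted p = 0.109) and Txnip at −0.42 (adjusted p = 0.147). Klf15, which is induced by both FoxO and the glucocorticoid receptor, rose in both muscles, at 0.62 (adjusted p = 0.0383) and 0.47 (adjusted p = 0.0829), and so did Ddit4 (REDD1), an inhibitor of mTORC1, at 0.56 (adjusted p = 0.0678) and 0.46 (adjusted p = 0.0705). Without TA pair 1 the TA value of Klf15 was 0.29. Gadd45g, a relative of Gadd45a, rose in both as well, at 0.34 (adjusted p = 0.0436) and 0.40 (adjusted p = 0.0405). Sod2 rose in gastrocnemius, at 0.45 (adjusted p = 0.0401), and Ccng2 in TA, at 0.31 (adjusted p = 0.0744). Foxo6 rose in gastrocnemius on its brightest probe, at 0.76 (adjusted p = 0.0294), and lay at −0.37 on another.

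FoxO factors also control genes that build and fill autophagosomes. Of the autophagy genes, 1 rose and 3 fell of 24 tested in gastrocnemius (median log2 ratio −0.088), and 0 rose and 4 fell of 24 in TA (median −0.062). Map1lc3a, which encodes a form of LC3 that coats the autophagosome, fell by the most, at −0.68 ± 0.092 (SD, n = 4 pairs, adjusted p = 0.0244) in gastrocnemius and −0.84 ± 0.47 (adjusted p = 0.0278) in TA, below 0 in all pairs. Its relative Gabarap fell too, at −0.36 (adjusted p = 0.0523) and −0.32 (adjusted p = 0.0381), as did Tfeb, the regulator of lysosomal genes, at −0.56 (adjusted p = 0.0478) and −0.45 (adjusted p = 0.0618). Wipi1 fell in TA, at −0.46 (adjusted p = 0.0191), and Ulk1, the kinase that starts autophagy, rose in gastrocnemius, at 0.46 (adjusted p = 0.0355).

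**Figure D5:**
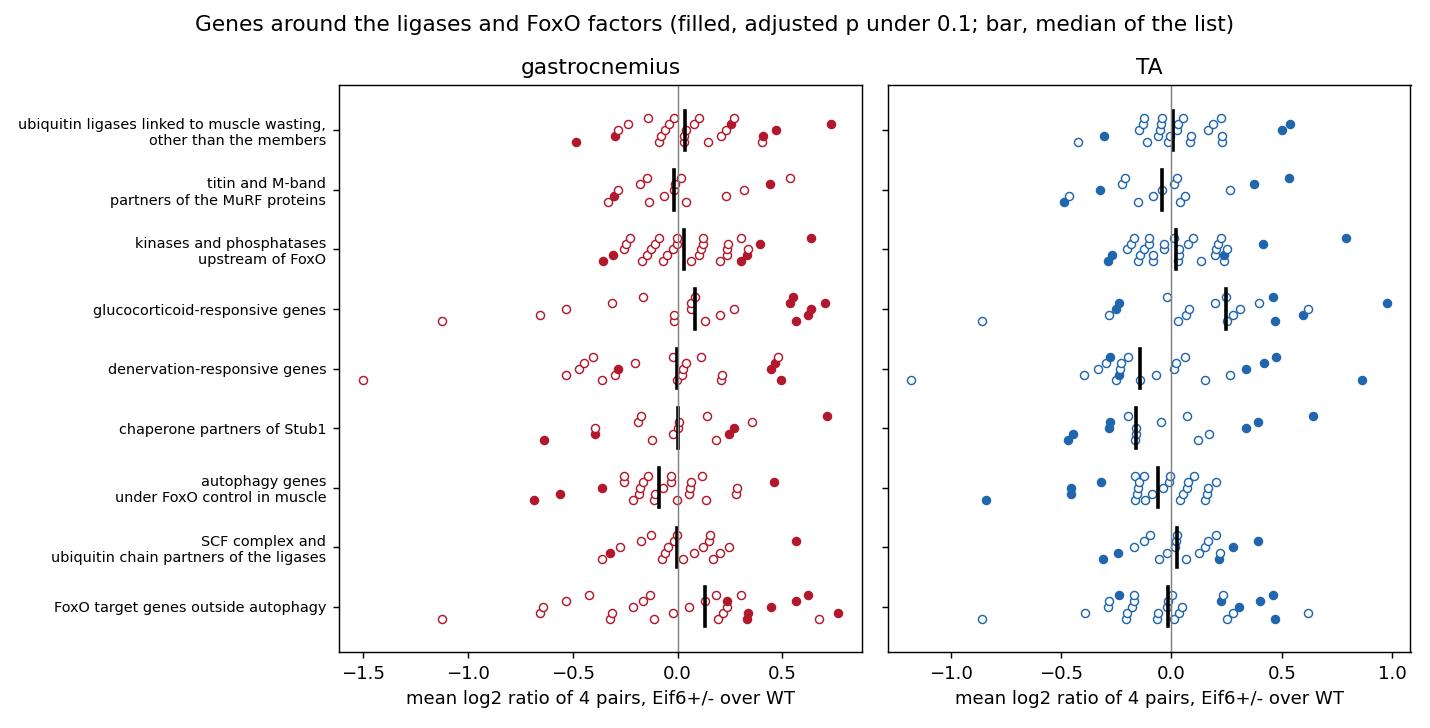
Mean log2 ratio of 4 pairs (horizontal axis) for each tested gene of the 9 pathway lists (rows), gastrocnemius on the left and TA on the right, with filled points for genes past the threshold and a black bar at the median of the list. The filled autophagy genes lie below 0 apart from Ulk1 in gastrocnemius. The filled glucocorticoid-responsive genes in gastrocnemius all lie above 0, while the open points of that list lie on both sides.

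Atrophy programmes are also read from their triggers. Of the glucocorticoid-responsive genes, 6 rose and 0 fell of 19 tested in gastrocnemius (median log2 ratio 0.084), and 4 rose and 2 fell of 19 in TA (median 0.25). Of the 19, 12 lay above 0 in gastrocnemius and 14 in TA. Angptl4 (−1.12) and Cdkn1a (−0.53, below 0 in all pairs) were among those below 0 in gastrocnemius, without a call. The phosphatase Dusp1 rose in both muscles, at 0.70 (adjusted p = 0.0416) and 0.98 (adjusted p = 0.0369), and so did the clock gene Per1, at 0.54 (adjusted p = 0.0666) and 0.60 (adjusted p = 0.0726), though the value was 0.35 in gastrocnemius and 0.33 in TA without pair 1 of the muscle. Klf15, Ddit4 and, in gastrocnemius alone, Sgk1 are given above. The 2 that fell in TA were Zbtb16, at −0.25 (adjusted p = 0.0632), and Cdkn1a, at −0.24 (adjusted p = 0.0896), below 0 in all TA pairs, and neither passed with any of the TA pairs left out. Of the denervation-responsive genes, 3 rose and 1 fell of 21 tested in gastrocnemius (median log2 ratio −0.0018), and 4 rose and 2 fell of 21 in TA (median −0.14). Atf4, the factor known to induce Gadd45a, rose in both muscles on its brightest probe, at 0.49 (adjusted p = 0.0301) and 0.47 (adjusted p = 0.0380), with another probe at −0.11 in TA. Hdac9 also rose in both, at 0.44 (adjusted p = 0.0631) and 0.34 (adjusted p = 0.0451). Myh8, the perinatal myosin, rose in both on its brightest probe, at 0.46 (adjusted p = 0.0526) and 0.86 (adjusted p = 0.0153), with another probe at −0.14 and −0.11. Myog rose in TA, at 0.42 (adjusted p = 0.0893), but had −1.04, 0.42, −0.85 and 0.034 in gastrocnemius pairs 1 to 4. The 2 that fell in TA were Ncam1, at −0.28, and Cdkn1a, given above. The acetylcholine receptor subunit Chrne fell in gastrocnemius, at −0.28 (adjusted p = 0.0771).

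Markers of other cells moved as well. Of the red blood cell markers 1 of 4 tested fell in gastrocnemius and 4 of 5 in TA, with Hbb-bs at −0.59 in gastrocnemius and Hbb-bs, Hba-a1, Alas2 and Hbb-bt at −1.30, −0.74, −0.67 and −0.62 in TA. The median log2 ratio of the list was −0.045, −0.31, −0.54 and −0.19 in gastrocnemius pairs 1 to 4 and −0.67, −0.93, −0.70 and −0.33 in TA pairs 1 to 4, below 0 throughout like Stub1. The median of the endothelial markers was below 0 on every array too (−0.25, −0.39, −0.30 and −0.20 and −0.22, −0.19, −0.19 and −0.037), though of the 6 genes Cldn5 alone was itself below 0 on all arrays, with 1 of 6 called in gastrocnemius and 2 of 6 in TA, among them Cldn5 at −0.63 (adjusted p = 0.0370) and −0.67 (adjusted p = 0.0248) and Pecam1 in TA at −0.32 (adjusted p = 0.0665). The summed intensity of the 6 endothelial genes, led by Vwf, was 6215, 6293, 5493, 5794, 5955, 5734, 4987 and 5204 in the WT channels and 5120, 4987, 4768, 5379, 4792, 5046, 4560 and 5196 in the Eif6+/- channels of gastrocnemius pairs 1 to 4 and TA pairs 1 to 4. It was higher in WT on every array. The sum of the 5 red cell genes, led by Hba-a1, was 17882, 27147, 30081, 21337, 28036, 24628, 22845 and 23166 in WT and 18291, 19555, 18317, 19833, 16935, 10699, 14630 and 18121 in Eif6+/-. Every gene of both lists was above background on at least 1 array. The part of these cells in the Stub1 values was not tested.

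The remaining marker lists differed from each other, and several lay on one side of 0 within a muscle. In TA 0 of 7 slow fibre, 0 of 6 nerve and 0 of 4 satellite cell markers lay above 0. In gastrocnemius 0 of 4 satellite cell, 0 of 4 leukocyte and 0 of 7 connective tissue markers did. Slow fibre markers fell in TA in 3 of 7 (Tnnt1 −0.90, Tnni1 −0.80 and Tnnc1 −0.41, adjusted p = 0.0240, 0.0254 and 0.0360) and 0 of 7 were called by limma in gastrocnemius (0 with an unadjusted p under 0.05), where the list's median ran from −1.25 in pair 2 to 2.64 in pair 1. Myelinated nerve markers fell in TA in 3 of 6 (6 with an unadjusted limma p under 0.05). Among them were S100b at −0.35 (adjusted p = 0.0993) and Mbp at −0.21 (adjusted p = 0.0885), the last with another probe called at 0.33. The median of the nerve list was −0.21, −0.27, −0.27 and −0.23 in TA pairs 1 to 4. In gastrocnemius 0 of 6 were called by limma (0 at an unadjusted p under 0.05). Of the muscle fibre markers 1 of 8 rose and 2 fell in gastrocnemius (Myh1 0.95 (adjusted p = 0.0480), Atp2a1 −0.75 (adjusted p = 0.0611), Ckm −0.37 (adjusted p = 0.0562)), and 2 rose and 2 fell in TA (Myh4 0.80 (adjusted p = 0.0132), Tnnc2 0.57 (adjusted p = 0.0276), Atp2a1 −0.61 (adjusted p = 0.0493), Mb −0.54 (adjusted p = 0.0671), or −0.33 without pair 4). Of 6 fat cell markers, Cfd and Adipoq fell in gastrocnemius, at −0.89 (adjusted p = 0.0760) and −0.64 (adjusted p = 0.0991) (−0.58 and −0.41 without pair 4), and Retn and Plin1 rose in TA, at 0.65 (adjusted p = 0.0744) and 0.51 (adjusted p = 0.0803). Of the leukocyte markers Cd74 alone of 4 fell in gastrocnemius, at −1.09 (adjusted p = 0.0401), and S100a9 alone of 6 in TA, at −1.61 (adjusted p = 0.0353). Of 7 connective tissue markers Thy1 fell in gastrocnemius, at −0.34 (adjusted p = 0.0692), and 0 passed limma in TA (0 at an unadjusted p under 0.05), and of 4 satellite cell markers 0 passed limma in either muscle (1 in gastrocnemius and 1 in TA at an unadjusted p under 0.05). The log2 ratio of Eif6+/- over WT was not called different between the muscles for any gene of these lists (limma, with 1755 of all probes at an unadjusted p under 0.05).

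The genes whose log2 ratio followed each member most closely over the 8 arrays were found among 12193 other genes, as a description of these arrays. Trim63 (brightest probe) was followed by Speg (r = 0.982), Eif3b (r = 0.979) and Akap8l (r = 0.977), and Trim54 by Synpo2 (r = 0.975), Pex10 (r = 0.973) and Mief1 (r = 0.968). Speg is a kinase of striated muscle and Synpo2 a protein of the Z-disc. Fbxo32 was followed by Tfrc (r = 0.975), Dpagt1 (r = 0.949) and Pir (r = 0.943). Tfrc, the transferrin receptor, is also on the list of FoxO targets, which was chosen with earlier results of these data known. In gastrocnemius Tfrc was called at 0.24 (adjusted p = 0.0921), while Fbxo32 was −0.14 and not called. Stub1 was followed by Tmem109 (r = 0.954), Cux1 (r = 0.950) and Fbxl5 (r = 0.941). Fbxo30 was followed by Snx15 (r = 0.967), Cinp (r = 0.947) and Ccp110 (r = 0.943), Trim55 by Atrn (r = 0.952) and Tas2r109 (r = 0.946), Foxo1 (probe A_51_P138044) by Ahcyl1 (r = 0.913), Hic1 (r = 0.913) and Gimap4 (r = 0.913), Foxo4 by Hook1 (r = 0.971), Phf5a (r = 0.961) and Col20a1 (r = 0.951) and Gadd45a by Pole3 (r = 0.988), Cpeb2 (r = 0.980) and Ccdc134 (r = 0.974). Among the members themselves, the brightest probes of Trim55 and Fbxo30 had r = 0.839 and those of Fbxo32 and Trim63 r = 0.606. The probes of Fbxo30 did not move together (r = −0.475 over 8 arrays). What is given here for Fbxo30 therefore holds for its probe A_51_P223036 alone.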

How the data were processed

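Gastrocnemius and TA RNA of Eif6+/- (Het, Cy5) and WT (Cy3) mice was hybridised to 8 two-colour Agilent arrays, all on one slide. Per the file headers, the deposited scanner files hold spot intensity from Agilent Feature Extraction 10.5.1.1, and the authors deposited a log2 ratio of Cy5 over Cy3 for each spot. The deposited log2 ratios correlated at 0.999961 to 0.999996 with the loess-normalized ratios of the uncorrected intensities, with slopes of 0.999918 to 1.00036 and intercepts of −0.00105 to −0.000437, so scale, centring and direction are those of log2 Cy5 over Cy3, and their array medians were 0.00257, 0.000831, −0.00441 and 0.00375 in gastrocnemius and 0.00138, −0.000366, 0.00288 and 0.00212 in TA.

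Median spot intensities (the files hold no mean) were background-corrected by normexp (offset 50), loess-normalized array by array, then quantile-normalized across the 16 channels without control spots, and averaged over the spots of a probe after outlier spots (233 to 318 per array) were left out. Testing in a muscle required that each of its 4 arrays had the probe well above background in Cy5 or in Cy3 and a value left after outlier removal, and a level compared between muscles needed all 4 arrays of a muscle above background in that dye. Between 38.7 and 48.6% of spots were well above background in a channel. Ratios were tested against 0, and levels of one dye between the muscles, with limma 3.58.1 (R 4.3.3), with Benjamini-Hochberg adjustment over all kept probes and a threshold of 0.1. The scripts were tested on simulated data, and figures were drawn with matplotlib 3.10.9 (Python 3.11.15). RefSeq accessions named 27235 of 55681 probes.

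The text names all members, Eif6, up to 4 called genes per list and muscle with the greatest absolute log2 ratio, judged by each gene's brightest probe, and the 3 genes most alike to each member, except that some genes these rules chose are not reported here. Other genes or probes that are mentioned were chosen after their values were seen. There were 9 pathway lists and 9 marker lists (muscle fibre, slow fibre, fat, red blood cell, leukocyte, connective tissue, endothelium, myelinated nerve and satellite cell). Members and lists were chosen with earlier results of these data known. Alternatives were other background, normalization, filter, threshold and test settings, each array left out in turn, and the pair number as a block. Keeping control spots in the quantile step was an alternative chosen after seeing the data.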

Additional observations from a re-analysis of the deposited data

Results flagged for a closer look

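A sample was singled out when its gap to the nearest of the other 3 samples of its group as a share of the group's range exceeded Dixon's 95% critical value. This was so in 7 of 168 groups examined, and chance gives about 1 in 20.

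Among the members, Fbxo30 (probe A_51_P223036) had a log2 ratio of −0.035 in gastrocnemius pair 2, with the other pairs between 0.28 and 0.33, and Foxo1 (probe A_51_P138044) had −0.099 in TA pair 3, with the others between −0.31 and −0.29. In WT gastrocnemius the normalized log2 intensity of Trim54 was 13.61 in pair 2 and 13.13 to 13.18 in the others, and in WT TA that of Trim55 was 7.84 in pair 3 and 7.68 to 7.71 in the others.

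Among the other genes named, the array of TA pair 1 stood apart for 2, with log2 ratios of 1.38 for Per1 (others 0.27 to 0.41) and 0.56 for Rack1 (others 0.29 to 0.33). Tfeb had 0.052 in TA pair 4, with the others between −0.67 and −0.57.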

How the results depend on the processing

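The number of member probes called in gastrocnemius, 1 in the values reported, was 3 with a spread shared over 8 arrays and 3 by SAM, and 0 to 2 when an array was left out. The number called in TA, 4 as reported, was 5 with loess only, 5 with the authors' deposited log2 ratios, 1 with normexp offset 0, 0 with Agilent's processed signals, 1 at a threshold of 0.05, 2 with the shared spread, 1 by the methods' t-test after Benjamini-Hochberg, and 0 to 4 when an array was left out. That unpaired test is the study's general one, and for these arrays its methods name SAM. Between the muscles in WT the number, 2 as reported, was 4 with normexp offset 0 and 1 to 3 when an array was left out. Between the muscles in Eif6+/-, 1 as reported, it was 0 with Agilent's processed signals after quantile normalization, 0 without a filter on dim probes, and 0 to 1 when an array was left out. For the difference in ratio between the muscles the count was 0 in all 18 alternatives. Where fewer arrays or another spread or signal changed a count, the cause was not tested.

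With the pair number as a replicate block, 1 member probe passed in WT, where Fbxo30 (probe A_51_P223036) had −0.28 with an adjusted p of 0.101, against 0.0366 to 0.109 over its alternatives. The block left 1 call in Eif6+/- and 0 for the difference. The labels do not say that a pair number marks the same mice in both muscles, and the deviations of same-numbered pairs correlated at −0.146, 0.0170, −0.357 and 0.0899, so the samples were not taken as paired.

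Signs changed for values that were not called. The log2 difference between muscles of Foxo1 (A_52_P453884) in Eif6+/- was −0.018 with loess and Aquantile, and that of Trim55 in WT was −0.015 with Agilent's processed signals. The difference in ratio was −0.0015 with loess only and −0.022 with the deposited ratios for Fbxo30 (A_51_P223036), and −0.016 with control spots kept for Trim63 (A_55_P2106745). The remaining sign changes came from leaving out an array. In the ratios they were in gastrocnemius for Trim55 (−0.12 to 0.073) and Trim63 A_52_P517224 (−0.15 to 0.12), and in TA for Fbxo32 (−0.40 to 0.059) and Gadd45a (−0.096 to 0.021). Between the muscles in WT they were for Foxo1 A_51_P138044 (−0.037 to 0.076) and A_52_P453884 (−0.099 to 0.0066), Trim54 (−0.058 to 0.11), Trim55 (−0.092 to 0.15) and Trim63 A_55_P2106745 (−0.095 to 0.16). Between the muscles in Eif6+/- they were for Fbxo30 A_66_P123804 (−0.090 to 0.040), Foxo1 A_52_P453884 (−0.036 to 0.032), Foxo4 A_55_P2113026 (−0.082 to 0.00068), Stub1 (−0.014 to 0.079), Trim63 A_52_P517224 (−0.12 to 0.063) and A_55_P2106745 (−0.083 to 0.16). In the difference of ratios they were for Fbxo30 A_51_P223036 (−0.0067 to 0.13) and A_66_P123804 (−0.044 to 0.11), Fbxo32 (−0.20 to 0.26), Foxo1 A_52_P453884 (−0.020 to 0.091), Gadd45a (−0.26 to 0.031), Trim54 (−0.017 to 0.20), Trim63 A_52_P517224 (−0.021 to 0.29) and A_55_P2106745 (−0.18 to 0.26). No sign changed among the other named genes, for which the call was lost in 199 of the values tried in gastrocnemius and 228 in TA and kept in 425 and 587.

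Over all probes, the count of 3349 in gastrocnemius became 1208 at a threshold of 0.05, 5170 with the shared spread, 5311 by SAM, 5342 by the methods' t-test at unadjusted p under 0.05 and 1737 after adjustment, 2114 without pair 2, and 0 without pair 3 or pair 4. The count of 3558 in TA became 2244 with normexp offset 0, 1765 with Agilent's processed signals, 5524 without a filter, 1347 at 0.05, 1493 by the methods' t-test after adjustment, and 0, 979 and 1891 without pairs 1, 2 and 3. Leaving out an array gave 2697 to 4454 between the muscles in WT (4395 as reported) and 1569 to 3864 in Eif6+/- (3477). The difference between muscles, 0 by limma with 1755 at an unadjusted p under 0.05, gave 1 with Agilent's processed signals, 1 without a filter and 1 without gastrocnemius pair 1. Foxo3 was limited by signal over background.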
